A study of Mus musculus with 55 samples.

Results

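Haemoglobin and erythroid genes, 6 transcripts of the red blood cell, were followed in the infarcted left ventricle (C57BL/6J mice): the alpha globin copies Hba-a1 and Hba-a2, the beta globin copies Hbb-bs and Hbb-bt, Alas2, and Slc4a1. The 6 symbols were matched to Ensembl gene identifiers, and all 6 were found among the 56941 genes counted at day 7 and the 57186 genes counted at day 28. Every sample, the non-diabetic ones included, is labelled as taken after myocardial infarction, which the design text describes for day 7 as a permanent coronary ligation. RNA from the infarct was sequenced in 8 type 1 diabetic, 8 type 2 diabetic and 8 non-diabetic libraries at day 7, and in 10 type 1 diabetic, 10 type 2 diabetic and 11 non-diabetic libraries at day 28. The library names carry "hi STZ" for type 1, "lo STZ HFFD" for type 2 and "Ctrl" for non-diabetic samples, and the labels do not spell these terms out or give age or sex. The labels do not say whether replicates of a group are separate animals, so p-values here measure the spread between libraries. The series title sets type 1 against type 2 diabetes after infarction, and the comparisons below follow that design within each day. Library totals ran from 30.8 to 51.2 M counts in the diabetic groups at day 7 and from 10.8 to 46.8 M in the non-diabetic group, and from 48.1 to 92.9 M at day 28. Markers of the labelled tissue were present in every group, the summed level of 8 cardiomyocyte genes running from 2220 to 27500 CPM (a gene's counts relative to the library's total, here adjusted for composition by TMM) at day 7 and from 10200 to 61100 CPM at day 28.

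A haemoglobin molecule is built from alpha chains and beta chains, each holding a haem group that binds oxygen. Alas2 is the erythroid form of the enzyme that begins haem synthesis, and Slc4a1 encodes band 3, the anion exchanger that also anchors the membrane skeleton of the red cell. These genes are transcribed in erythroid precursors of the bone marrow and spleen. Reticulocytes, the youngest circulating red cells, have lost the nucleus but keep globin messenger RNA, so blood held in a tissue sample carries these transcripts. In bulk RNA, more red cells and more RNA per red cell cannot be told apart.

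The members were selected on their measured values, being high in type 1 diabetic over non-diabetic infarct at day 7. Their day 7 values are therefore given as a description with no test, the type 2 comparisons of that day included, since they share libraries with the contrast that chose them. The day 28 libraries took no part in the choice and are tested.

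The 5 members with an entry among the RefSeq promoters of GRCm38.p6 are shown because they were high in the same libraries. The table of promoters has another genome build than the counts, for which the submitters' processing notes name mm39. Each line gives the 210 bases that end just before the annotated start, read 5′ to 3′ on the gene's strand, with matches on either strand to GATAA (the GATA motif), CACCC (bound by Klf1 and related factors), CCAAT (the CCAAT box) and TATAA (the TATA box) in capitals. Hba-a1 lies at chr11:32283462-32283671 (plus strand), Hbb-bs at chr7:103827929-103828138 (minus), Hbb-bt at chr7:103813924-103814133 (minus) and Alas2 at chrX:150547207-150547416 (plus).
Hba-a1: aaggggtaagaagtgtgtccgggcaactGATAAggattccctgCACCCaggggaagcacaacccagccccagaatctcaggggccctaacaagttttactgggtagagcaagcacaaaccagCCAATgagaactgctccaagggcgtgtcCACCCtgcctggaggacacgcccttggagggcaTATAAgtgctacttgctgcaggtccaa
Hbb-bs: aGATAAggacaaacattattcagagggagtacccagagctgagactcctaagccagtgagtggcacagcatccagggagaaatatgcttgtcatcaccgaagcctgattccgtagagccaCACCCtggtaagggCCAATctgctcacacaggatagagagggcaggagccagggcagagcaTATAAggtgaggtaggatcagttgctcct
Hbb-bt: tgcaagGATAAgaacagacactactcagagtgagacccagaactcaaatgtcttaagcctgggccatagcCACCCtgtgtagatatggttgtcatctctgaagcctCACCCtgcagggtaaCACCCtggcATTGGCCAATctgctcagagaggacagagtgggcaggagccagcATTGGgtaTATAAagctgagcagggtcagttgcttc
Alas2: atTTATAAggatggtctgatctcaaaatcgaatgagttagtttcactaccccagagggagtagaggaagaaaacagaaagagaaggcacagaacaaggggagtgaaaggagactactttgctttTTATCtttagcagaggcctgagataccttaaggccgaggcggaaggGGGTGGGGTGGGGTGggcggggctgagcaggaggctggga
Hba-a2 at chr11:32296282-32296491 (plus) shares an unbroken run of 207 of these bases with Hba-a1, so its line is not repeated, and Slc4a1 is named only. The globin promoters each held TATAA with its first base 27 to 30 bases before the start. Farther out each held CCAAT, then at least 1 match of CACCC, and a more distant GATAA. Alas2 held GATAA on the opposite strand, 86 to 82 bases before the start, 3 copies of CACCC on the opposite strand, and no CCAAT in the 250 bases searched. Over all 32851 promoters of the table, 22.6% held GATAA, 52.0% CACCC, 33.8% CCAAT and 22.8% TATAA in a window of the same 250 bases. A match is a description of the letters and not a bound site.

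The copies within each globin pair are close to identical, which limits what each copy's count means. The coding sequences of Hba-a1 and Hba-a2 in GENCODE M21 matched at 428 of 429 bases, and those of Hbb-bs and Hbb-bt at 443 of 444. The stretches below show the single differing base in capitals, with positions counted from 1 at the first base of the start codon. From Hba-a1 to Hba-a2 the change is C381T, and from Hbb-bs to Hbb-bt it is C417T.
Hba-a1 coding bases 366 to 396: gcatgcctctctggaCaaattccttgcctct
Hba-a2 coding bases 366 to 396: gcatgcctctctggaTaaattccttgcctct
Hbb-bs coding bases 402 to 432: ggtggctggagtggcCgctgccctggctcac
Hbb-bt coding bases 402 to 432: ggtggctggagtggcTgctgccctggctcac
Of the 31-base words of the Hba-a1 coding sequence, 92.2% also occur in Hba-a2, and 93.2% of those of Hbb-bs occur in Hbb-bt. How the authors' counting dealt with reads that fit both copies is not given in the sources used here, so levels of the single copies are uncertain and the sum of a pair is firmer.

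At day 7 the alpha globins were highest in the type 1 diabetic infarct, intermediate in the type 2 diabetic infarct and lowest in the non-diabetic infarct by their medians. Hba-a1 had a lowest, median and highest level of 33.8, 85.9 and 566 CPM in type 1 diabetic libraries, 29.8, 55.6 and 117 CPM in type 2 diabetic libraries and 13.6, 23.1 and 65.4 CPM in non-diabetic libraries. Type 1 replicate 6 stood well above the others of its group and non-diabetic replicate 5 was the highest control, and the groups overlapped, with 5 of 8 type 1 and 3 of 8 type 2 libraries above every non-diabetic library. The log2 change of Hba-a1 was 2.32 (SE 0.496) for type 1 over non-diabetic, 1.16 (SE 0.481) for type 2 over non-diabetic and 1.16 (SE 0.476) for type 1 over type 2. Hba-a2 ran at a lower level in the same order, with 12.8, 38.8 and 184 CPM in type 1, 13.3, 25.6 and 54.3 CPM in type 2 and 4.95, 11.2 and 27.4 CPM in non-diabetic libraries.

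The beta globins followed the alpha globins. Hbb-bs, the most abundant member, had 78.6, 234 and 1300 CPM (lowest, median, highest) in type 1 diabetic libraries, 96.7, 158 and 305 CPM in type 2 diabetic libraries and 35.1, 65.8 and 177 CPM in non-diabetic libraries. Its groups overlapped, with 4 of 8 type 1 libraries and 3 of 8 type 2 libraries above the highest non-diabetic library. The log2 change of Hbb-bs was 2.31 (SE 0.469) for type 1 over non-diabetic, 1.24 (SE 0.455) for type 2 over non-diabetic and 1.06 (SE 0.451) for type 1 over type 2. Hbb-bt, the minor adult copy here, had 11.6, 32.6 and 179 CPM in type 1, 12.5, 26.1 and 49.5 CPM in type 2 and 5.43, 10.9 and 23.4 CPM in non-diabetic libraries.

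The haem enzyme and the membrane transporter of the red cell were scarcer. Alas2 had 4.42, 13.5 and 98.8 CPM (lowest, median, highest) in type 1 diabetic libraries, 5.41, 9.44 and 18.8 CPM in type 2 diabetic libraries and 2.26, 3.94 and 13.3 CPM in non-diabetic libraries. Its log2 change was 2.32 (SE 0.518) for type 1 over non-diabetic, 1.13 (SE 0.506) for type 2 over non-diabetic and 1.19 (SE 0.49) for type 1 over type 2. As for the globins, type 1 replicate 6 and non-diabetic replicate 5 were the highest of their groups, and the groups overlapped.

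Slc4a1, at the lowest level of the members, was unevenly spread over libraries. It had 0.128, 1.14 and 8.21 CPM in type 1 diabetic libraries, 0.443, 0.703 and 11.6 CPM in type 2 diabetic libraries and 0.0485, 0.528 and 1.11 CPM in non-diabetic libraries, on 2 to 558 raw counts. Its highest level lay in type 2 replicate 2, a single library, with type 1 replicate 6 second. The log2 change of Slc4a1 was 1.97 (SE 0.830) for type 1 over non-diabetic, 2.02 (SE 0.83) for type 2 over non-diabetic and -0.05 (SE 0.753) for type 1 over type 2. Without type 2 replicate 2 the second of these was 0.399 and the third 1.58.

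**Figure D1:**
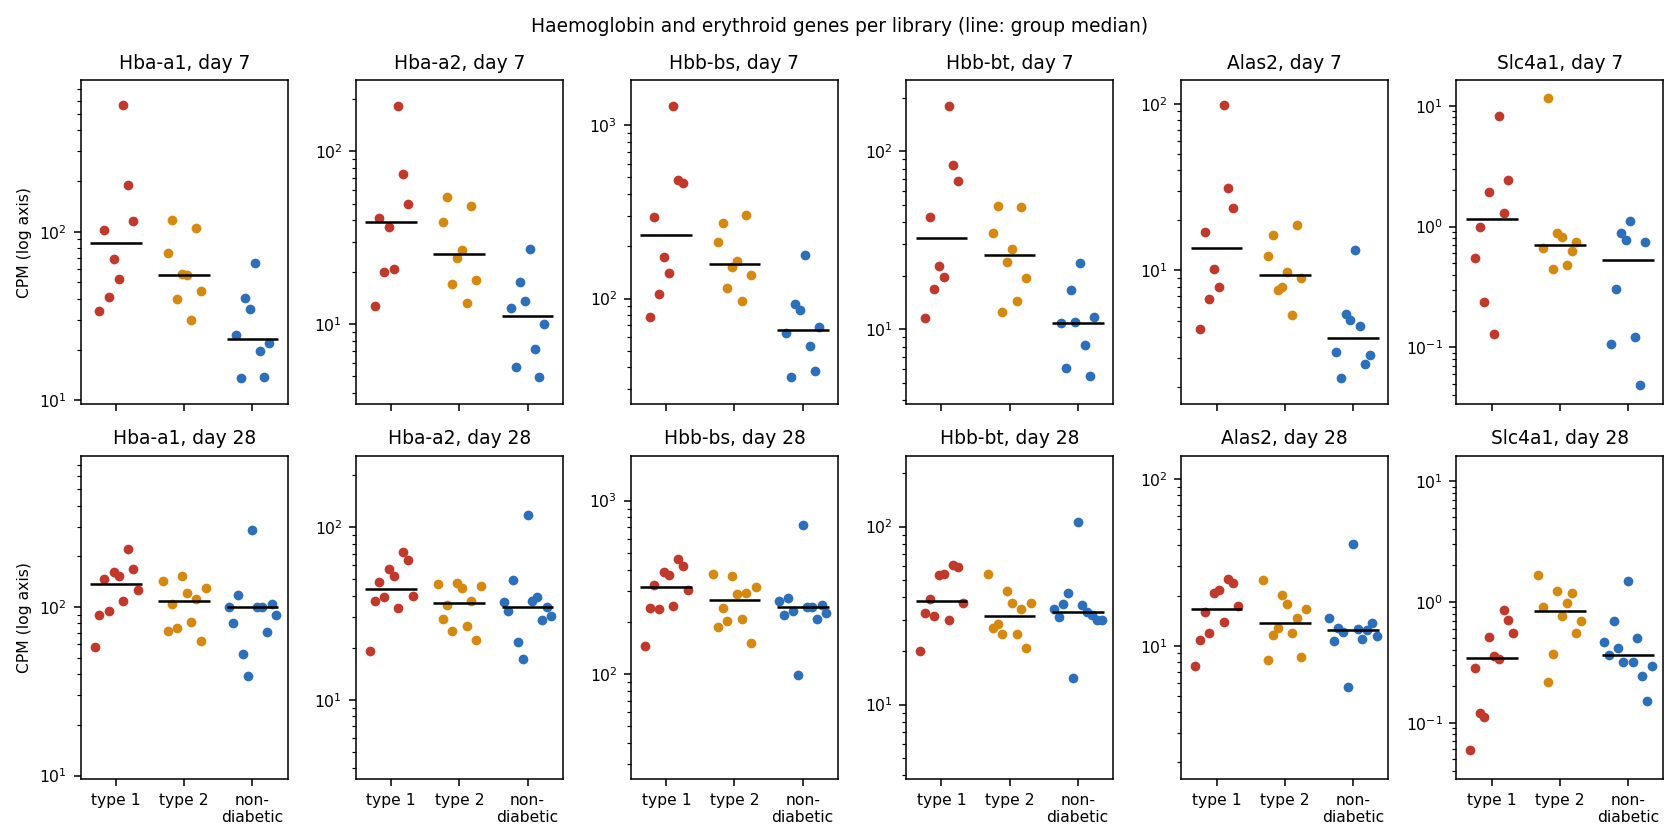
Level of each member in every library (CPM, log axis), with type 1 diabetic, type 2 diabetic and non-diabetic groups from left to right, day 7 above and day 28 below; points are libraries and lines are group medians. At day 7 the Hbb-bs medians are 234, 158 and 65.8 CPM from left to right, and at day 28 they are 317, 265 and 243 CPM.

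The median log2 change over the 6 members at day 7 was 2.28 for type 1 over non-diabetic, 1.26 for type 2 over non-diabetic and 1.00 for type 1 over type 2, beside -0.01, -0.03 and 0.00 over all 18165 genes tested. All 6 members had passed the filter on low counts. For the 4 globins and Alas2, 8 of 8 type 1 and 8 of 8 type 2 libraries lay above the non-diabetic mean (log2 CPM), and for Slc4a1 6 of 8 type 1 and 8 of 8 type 2 libraries did. In edgeR's test at an adjusted p of 0.05, 5 of the 6 were called higher in type 1 over non-diabetic infarct, where 11.1% of all genes were called higher and 22.5% in either direction, and this is the contrast that chose them. The counts were 0 of 6 for type 2 over non-diabetic (7.35% of genes called) and 0 of 6 for type 1 over type 2 (2.71% called). These counts are given as a description: 5 members were called in type 2 over non-diabetic when the fit held only those 2 groups. The groups of a comparison overlapped for every member, and over all genes the groups did not overlap for 1.36% in type 1 over non-diabetic, 1.66% in type 2 over non-diabetic and 0.644% in type 1 over type 2.

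Single libraries carried part of the day 7 difference. Type 1 replicate 6 held 92292 haemoglobin counts, 0.232% of its total, against a type 1 median of 0.0404%. Without it the median log2 change of the members was 1.57 for type 1 over non-diabetic and 0.402 for type 1 over type 2. Without non-diabetic replicate 5, the highest control, the medians were 2.54 for type 1 over non-diabetic and 1.55 for type 2 over non-diabetic.

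At day 28 no difference in a globin or in Alas2 passed the test. Hba-a1 had 58.3, 136 and 221 CPM (lowest, median, highest) in type 1 diabetic libraries, 62.6, 108 and 153 CPM in type 2 diabetic libraries and 39.2, 99.6 and 287 CPM in non-diabetic libraries. The highest and the lowest library were both non-diabetic, replicates 6 and 5, and the diabetic groups lay between them. Its log2 change was 0.35 (SE 0.250, 95% interval -0.16 to 0.86) for type 1 over non-diabetic and 0.02 (SE 0.250, interval -0.49 to 0.53) for type 2 over non-diabetic, neither of which passed the quasi-likelihood test of edgeR (Benjamini-Hochberg adjusted p = 0.453 and 0.966). Hba-a2 had 19.02, 43.9 and 71.8 CPM in type 1, 22.2, 36.1 and 47.2 CPM in type 2 and 17.1, 34.3 and 117 CPM in non-diabetic libraries. Leaving out non-diabetic replicate 6 raised the changes for type 1 over non-diabetic. They were then 0.634 for Hba-a1, 0.498 for Hba-a2, 0.478 for Hbb-bs, 0.385 for Hbb-bt and 0.529 for Alas2. None of these passed edgeR's test (adjusted p from 0.0874 to 0.278).

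Hbb-bs had 145, 317 and 460 CPM (lowest, median, highest) in type 1 diabetic libraries at day 28, 150, 265 and 378 CPM in type 2 diabetic libraries and 98.8, 243 and 720 CPM in non-diabetic libraries. The non-diabetic range again enclosed both diabetic groups. The log2 change of Hbb-bs was 0.22 (SE 0.230, 95% interval -0.25 to 0.69, edgeR adjusted p = 0.650) for type 1 over non-diabetic and -0.04 (SE 0.231, interval -0.51 to 0.43, adjusted p = 0.943) for type 2 over non-diabetic. Hbb-bt had 20.1, 38.1 and 61.0 CPM in type 1, 20.7, 31.4 and 53.9 CPM in type 2 and 14.0, 33.1 and 107 CPM in non-diabetic libraries. Its log2 change for type 2 over non-diabetic was -0.22 (SE 0.238, interval -0.71 to 0.26, edgeR adjusted p = 0.600), and without non-diabetic replicate 6 it was 0.0548. Alas2 had 7.52, 16.6 and 25.02 CPM in type 1, 8.22, 13.7 and 24.9 CPM in type 2 and 5.69, 12.4 and 40.5 CPM in non-diabetic libraries, with a log2 change of 0.24 (SE 0.250, interval -0.27 to 0.75, edgeR adjusted p = 0.647) for type 1 over non-diabetic.

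Between the diabetic groups at day 28, the log2 changes of the 4 globins and Alas2 for type 1 over type 2 ran from 0.20 to 0.36. The largest, that of Hba-a2, had a 95% interval of -0.15 to 0.88 (SE 0.252, edgeR adjusted p = 0.515). The intervals of the other globins and Alas2 reached upper ends of 0.72 to 0.85 and all held 0, so equal levels are not shown.

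Slc4a1 had larger estimated changes at day 28 than the other members in both comparisons with type 2, and neither passed the test. It had 0.0597, 0.346 and 0.858 CPM (lowest, median, highest) in type 1 diabetic libraries, 0.219, 0.839 and 1.67 CPM in type 2 diabetic libraries and 0.151, 0.362 and 1.5 CPM in non-diabetic libraries, on 4 to 158 raw counts. The type 2 libraries lay mostly high, and the groups overlapped. Its log2 change was -1.13 (SE 0.405, 95% interval -1.96 to -0.31) for type 1 over type 2 and 0.83 (SE 0.391, interval 0.04 to 1.63) for type 2 over non-diabetic. Neither passed edgeR's test over all genes (adjusted p = 0.123 and 0.176, unadjusted p = 0.00889 and 0.0410). Without non-diabetic replicate 6, the highest control, the change for type 2 over non-diabetic was 1.18 and passed edgeR's test (adjusted p = 0.0388).

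By edgeR 0 of the 6 members were called at day 28 in each comparison, where 4.02% of 18901 genes were called for type 1 over non-diabetic, 10.7% for type 2 over non-diabetic and 3.21% for type 1 over type 2. At an unadjusted p under 0.05 the counts were 0, 1 and 1 in that order, the 1 being Slc4a1 both times, and DESeq2 and limma-voom also called 0 after adjustment. The median log2 change of the members was 0.21 for type 1 over non-diabetic, -0.01 for type 2 over non-diabetic and 0.29 for type 1 over type 2. The library names give the 2 days different project numbers, so the effects of time and of project cannot be told apart, and levels of the days stand side by side without a comparison.

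**Figure D2:**
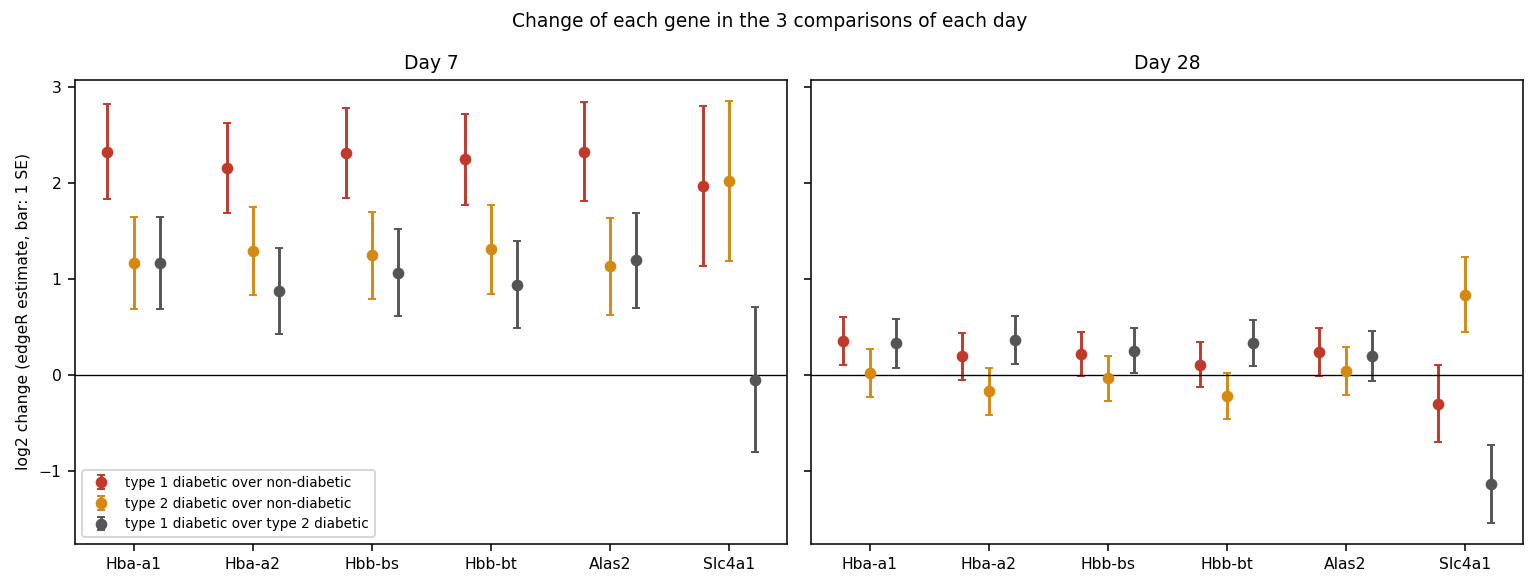
Log2 change of each member (edgeR estimate, bars 1 SE) in the 3 comparisons of day 7 (left) and of day 28 (right). At day 7 the type 1 over non-diabetic estimates lie between 1.97 and 2.32, and at day 28 they lie between -0.30 and 0.35.

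Apart from Slc4a1, the proportions among the members varied less over libraries than their levels. Per length of annotated exons (GENCODE M21), the group medians of CPM per kilobase ran in 1 order in all 6 groups: Hbb-bs, Hba-a1, Hba-a2, Hbb-bt, Alas2, Slc4a1. In type 1 diabetic infarct at day 7 these medians were 304 CPM per kilobase for Hbb-bs, 106 for Hba-a1, 58.2 for Hba-a2, 46.4 for Hbb-bt, 5.63 for Alas2 and 0.234 for Slc4a1. Hba-a2 and Hbb-bt were close neighbours, 38.4 and 37.1 CPM per kilobase in type 2 diabetic infarct at day 7, and differed by less than the spread of either over libraries.

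The alpha to beta ratio of counts had medians of 0.481 in type 1, 0.441 in type 2 and 0.465 in non-diabetic libraries at day 7, and of 0.490, 0.481 and 0.489 in those groups at day 28. Type 1 replicate 8 at day 7 (0.312) and non-diabetic replicate 4 at day 28 (0.274) lay lowest. Hba-a1 took 65.5% to 76.4% of the alpha counts and Hbb-bs 84.4% to 90.2% of the beta counts over the 55 libraries. Alas2 gave a median of 34.7 counts per 1000 haemoglobin counts in type 1, 35.4 in type 2 and 35.8 in non-diabetic libraries at day 7, and 31.1, 33.2 and 32.9 in those groups at day 28. So Alas2 and haemoglobin kept nearly the same proportion in groups whose haemoglobin share of all counts had medians of 0.0404% in type 1, 0.0266% in type 2 and 0.0109% in non-diabetic libraries at day 7.

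Slc4a1 varied more against haemoglobin. Its counts per 1000 haemoglobin counts ran from 0.548 to 6.35 in type 1 libraries at day 7, from 1.24 to 23.4 in type 2 libraries and from 0.780 to 6.73 in non-diabetic libraries. The value of 23.4 was type 2 replicate 2, and the next type 2 library had 3.45. At day 28 the lowest, median and highest were 0.214, 0.739 and 1.08 in type 1, 0.537, 2.08 and 2.88 in type 2 and 0.360, 1.08 and 1.87 in non-diabetic libraries. The type 2 median was above every type 1 and non-diabetic library, while the lowest type 2 library lay below both other medians.

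**Figure D3:**
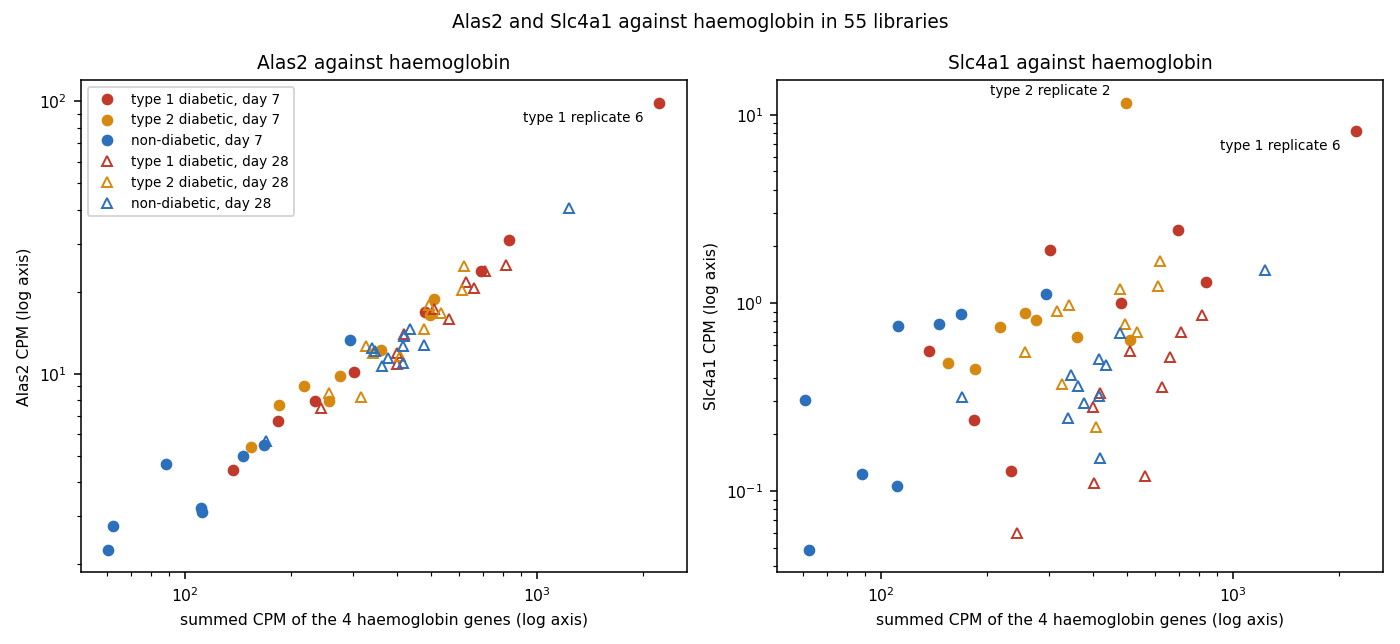
Alas2 (left) and Slc4a1 (right) against the summed level of the 4 haemoglobin genes in 55 libraries (CPM, log axes); filled circles are day 7, open triangles day 28, and colours the groups. Alas2 lies along a narrow band over the whole range, and Slc4a1 scatters, with type 2 replicate 2 at 11.6 CPM of Slc4a1 above the rest.

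With the group means subtracted, the log2 CPM of the 4 globins and Alas2 correlated with each other at r from 0.939 to 0.984 over the 24 day 7 libraries and from 0.891 to 0.975 over the 31 day 28 libraries. Those with Slc4a1 ran from 0.680 to 0.755 and from 0.622 to 0.695. The genes of a pair share reads, and all genes of a library share its depth. The gene most like the members' mean was Bpgm, which makes the red cell regulator bisphosphoglycerate, at day 7 (r = 0.756 over 24 libraries, among 12995 genes), followed by 9430038I01Rik, Col28a1, Phykpl and Zswim4 (r from 0.650 to 0.728). Type 1 replicate 6 was the highest day 7 library in the members' mean and in Bpgm, at 44.6 CPM beside at most 26.7 CPM in the other 23. How far that library carries the day 7 ranking was not tested. At day 28 the genes most like the members included Bpgm (r = 0.727 over 31 libraries, among 12661 genes), Ube2l6, F11r and Itpkc (0.542 to 0.590).

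Few of the other red cell genes passed the test. Of 22 listed companions, 21 were in the tables and 13 passed the filter on low counts at each day. Their levels differed widely. Over the 23 day 7 libraries other than a gene's highest, the median was 0 CPM for Kel and Hemgn and 0.0904 CPM for Klf1. It was 68.8 CPM for Sptb and 39.8 CPM for Ank1. The calls cover only the 13 that passed the filter, and so say little about genes near 0. Which cells gave the counts, those of Sptb and Ank1 included, was not tested. In type 1 over non-diabetic infarct at day 7, 2 of 13 rose, where 11.1% of all genes rose. These include Nfe2, an erythroid and megakaryocyte transcription factor. Nfe2 had a log2 change of 1.3 (SE 0.376, edgeR adjusted p = 0.0149) and 0.88 without type 1 replicate 4. Bpgm (0.39, SE 0.142, edgeR adjusted p = 0.0514) and the membrane skeleton genes Sptb (-0.42, SE 0.222) and Ank1 (-0.60, SE 0.298) did not pass the test. The median log2 change of the 13 was 0.13, beside -0.01 over all genes.

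In the other comparisons edgeR called 0 of the 13 companions. At an unadjusted p under 0.05 there were 5 in type 2 over non-diabetic and 2 in type 1 over type 2 at day 7, and 2, 1 and 2 at day 28 in type 1 over non-diabetic, type 2 over non-diabetic and type 1 over type 2. DESeq2 called 1 companion in type 2 over non-diabetic at day 7 and 1 in type 1 over type 2 at day 28, and limma-voom called none in those. The list was drawn up with results of these libraries known and is no independent evidence. Sptb, Ank1 and Rhd had their highest day 7 levels in a non-diabetic library, replicate 2.

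Type 2 replicate 2 at day 7 stood apart in several erythroid membrane and transcription factor genes. Of the 21 companions, 10 had their highest day 7 level there. It held 50 counts of Epb42 (protein 4.2 of the membrane), 63 of Kel (the Kell antigen), 148 of Ermap, 31 of the erythroid transcription factor Klf1, 48 of Hemgn, 72 of Trim10 and 24 of Tspo2. Type 1 replicate 6, with 92292 haemoglobin counts against 23806, held 18 counts of Epb42, 0 of Kel, 16 of Ermap, 6 of Klf1, 4 of Hemgn, 56 of Trim10 and 2 of Tspo2. That library was instead highest in Bpgm (1847 counts). These genes were singled out after their values were seen.

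**Figure D4:**
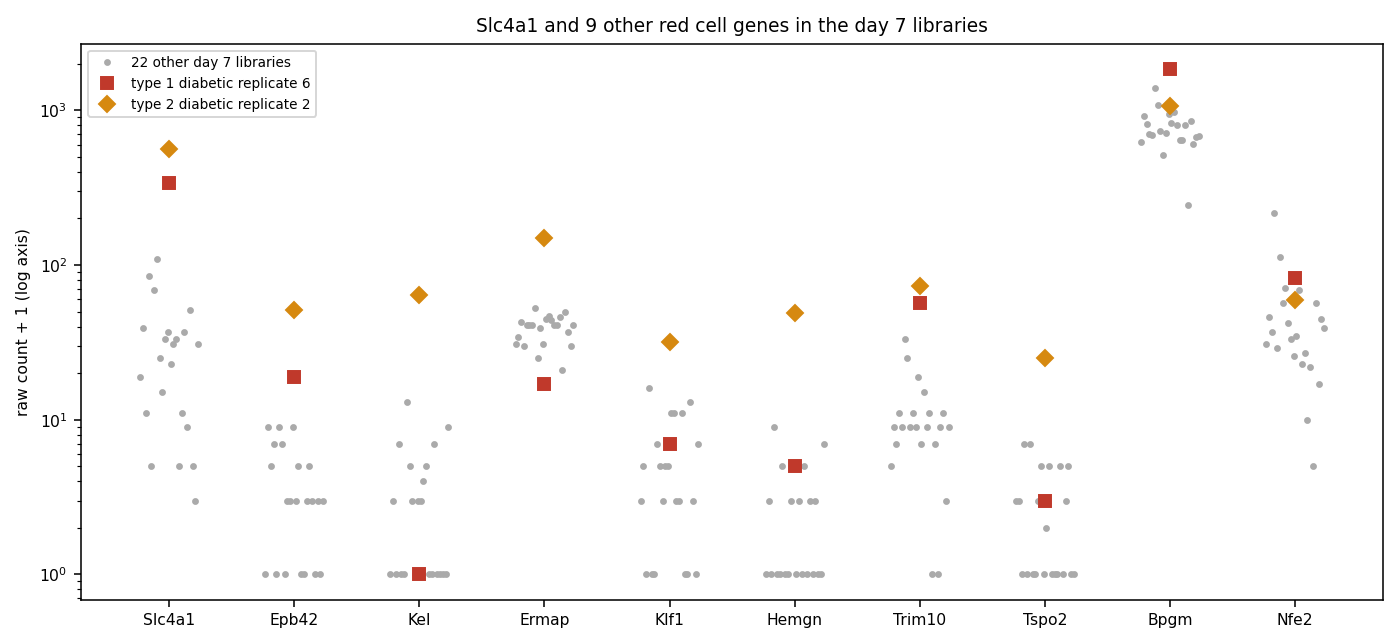
Raw counts plus 1 (log axis) of Slc4a1 and 9 companions in the 24 day 7 libraries, with type 1 diabetic replicate 6 as squares, type 2 diabetic replicate 2 as diamonds and the other 22 libraries as dots. The diamond is highest in Slc4a1 (558 counts), Epb42, Kel, Ermap, Klf1, Hemgn, Trim10 and Tspo2, and the square in Bpgm.

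Embryonic globins gave next to no counts. Hba-x had 0 counts in 55 of 55 libraries, Hbb-y in 52 of 55 with at most 4 counts, and Hbb-bh1 in 53 of 55 with at most 2. Of the globins outside the red cell, Mb, the myoglobin of heart muscle, fell by 1.5 on the log2 scale in type 1 over non-diabetic infarct at day 7 (SE 0.502, edgeR adjusted p = 0.0324), a call lost without type 1 replicate 1, 6 or 7 or non-diabetic replicate 2 or 3 (adjusted p up to 0.0855). Cygb, cytoglobin, fell by 0.55 in type 1 over non-diabetic (SE 0.153, edgeR adjusted p = 0.0120) and by 0.77 in type 2 over non-diabetic (SE 0.154, adjusted p = 0.00316). These were 2 and 1 of the 3 other globins tested, beside 22.5% and 7.35% of all genes called in those comparisons. Both globin counts were 0 with libraries summed whose names begin with the same number (edgeR adjusted p of Cygb 0.0599 and 0.0994).

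Of 8 other genes of haem synthesis, 1 rose and 1 fell in type 1 over non-diabetic infarct at day 7, where 22.5% of all genes were called. Ppox, the oxidase of a late step, fell by 0.40 on the log2 scale (SE 0.0805, edgeR adjusted p = 0.00133). EdgeR called 0 of 8 in type 2 over non-diabetic and in type 1 over type 2 that day, with 3 at an unadjusted p under 0.05 in each. Of 8 genes that clear free haemoglobin and haem, 4 rose in type 1 over non-diabetic, where 11.1% of all genes rose. These were Hp (haptoglobin, which binds free haemoglobin), Cd163 (the macrophage receptor for that complex), Hmox1 (haem oxygenase) and Blvra (biliverdin reductase).

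Hmox1 had 296, 610 and 1141 CPM (lowest, median, highest) in type 1 diabetic libraries, 176, 357 and 525 CPM in type 2 diabetic libraries and 114, 275 and 581 CPM in non-diabetic libraries. Its log2 change for type 1 over non-diabetic was 1.28 (SE 0.302, edgeR adjusted p = 0.00423), and that of Blvra was 0.48 (SE 0.0750, adjusted p = 0.000204). Cd163 changed by 1.67 (SE 0.537, edgeR adjusted p = 0.0262) and Hp by 2.15 (SE 0.661, adjusted p = 0.0210). The change of Hp was 0.65 without type 1 replicate 4, which held 1009 CPM, and did not then pass the test (edgeR adjusted p = 0.293). Cd163 was also higher in type 1 over type 2 (2.25, SE 0.547, edgeR adjusted p = 0.0275), and so was Blvra (0.31, SE 0.0746, adjusted p = 0.0279). The call of Cd163 over non-diabetic was lost without type 1 replicate 4 or non-diabetic replicate 2 or 3 (edgeR adjusted p up to 0.0676). Over type 2, that of Cd163 was lost without type 1 replicate 6 or 8 or type 2 replicate 2, 4 or 6 (adjusted p up to 0.0632), and that of Blvra without type 1 replicate 6, 7 or 8 or type 2 replicate 6 (up to 0.0685). At day 28 edgeR called 0 of the 8 haem synthesis and 0 of the 8 clearance genes in each comparison, with 3, 1 and 1 of the synthesis genes and 1, 1 and 0 of the clearance genes at an unadjusted p under 0.05 in type 1 over non-diabetic, type 2 over non-diabetic and type 1 over type 2.

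Genes of other blood cells moved beside the members at day 7, and their part in the result was not tested. Over all genes, 11.1% rose in type 1 over non-diabetic infarct that day. In either direction 7.35% were called in type 2 over non-diabetic and 2.71% in type 1 over type 2. Platelet genes Ppbp (2.15, SE 0.452), Gp9 (2.05, SE 0.401) and Pf4 (1.48, SE 0.226) rose in type 1 over non-diabetic infarct, 3 of 10 tested (edgeR adjusted p = 0.00188, 0.00113 and 0.000176). The summed level of the 12 platelet genes ran from 94.7 to 211 CPM in type 1, 45.3 to 115 CPM in type 2 and 37.6 to 103 CPM in non-diabetic libraries. Of the neutrophil genes 6 of 8 rose in type 1 over non-diabetic, and their summed level ran from 79.6 to 690 CPM in type 1, 69.0 to 132 CPM in type 2 and 34.5 to 221 CPM in non-diabetic libraries. In type 2 over non-diabetic, 1 platelet gene (Gp9, 1.59, SE 0.407, edgeR adjusted p = 0.0182, and 0.0510 without type 2 replicate 1) and 2 neutrophil genes rose, Mmp8 and Csf3r. The call of Csf3r was lost in 13 of 24 fits with 1 library left out (edgeR adjusted p up to 0.103). In type 1 over type 2, Pf4 (1.11, SE 0.224, edgeR adjusted p = 0.0109) and the neutrophil gene S100a8 (2.22, SE 0.612, adjusted p = 0.0485) rose, and with 1 library left out the count of neutrophil genes ran from 0 to 4. None of the listed platelet or neutrophil genes was at 0 in every library of a group. At day 28 edgeR called 0 of 11 platelet and 0 of 8 neutrophil genes in each comparison, with 2, 3 and 0 platelet and 0, 1 and 0 neutrophil genes at an unadjusted p under 0.05 in type 1 over non-diabetic, type 2 over non-diabetic and type 1 over type 2.

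Markers of the infarct's own cells also differed between the groups that hold the members' day 7 difference. Over all genes, edgeR called 22.5% in type 1 over non-diabetic (11.1% higher) and 7.35% in type 2 over non-diabetic. The fibroblast collagens Col1a1 (-0.74, SE 0.152, edgeR adjusted p = 0.00151), Col1a2 (-0.73, SE 0.169, adjusted p = 0.00358) and Col3a1 (-0.37, SE 0.120, adjusted p = 0.0277) fell in type 1 over non-diabetic infarct, 3 of 5. In type 2 over non-diabetic edgeR called 0 of 5, with 4 at an unadjusted p under 0.05, while DESeq2 called 2 and limma-voom 1. The median log2 change of the 5 was -0.37 for type 1 and -0.38 for type 2 over non-diabetic, and 0.01 for type 1 over type 2. The summed fibroblast level ran from 21300 to 43100 CPM in type 1, 23000 to 42500 CPM in type 2 and 40400 to 54400 CPM in non-diabetic libraries. Of 5 macrophage genes, 3 rose in type 1 and 2 in type 2 over non-diabetic, Fcgr1 by 0.85 (SE 0.121, edgeR adjusted p = 0.000133) and 0.78 (SE 0.121, adjusted p = 0.000272). Of 5 T cell genes, 4 rose in type 2 over non-diabetic, and 1 with libraries summed whose names begin with the same number. In type 1 over non-diabetic only Lck was called (0.58, SE 0.212, edgeR adjusted p = 0.0493), a call lost in 16 of 24 fits with 1 library left out and in 5 of 9 other alternatives. EdgeR called 0 of 8 cardiomyocyte genes in type 1 over non-diabetic, with 4 at an unadjusted p under 0.05, while DESeq2 called 2 and limma-voom 1. Adipocyte and B cell genes also had positive median estimates in type 1 infarct at day 7, and edgeR called none. By group medians the summed B cell level was lower in type 1, at 37.2 CPM, beside 59 CPM in type 2 and 57.1 CPM in non-diabetic libraries. The summed adipocyte medians were 349, 309 and 258 CPM in that order. For 4 adipocyte genes the median log2 change was 3.67 for type 1 over non-diabetic and 4.27 for type 1 over type 2, with 4 and 3 of 4 at an unadjusted p under 0.05, and DESeq2 called 1 and 0. For 5 B cell genes the median was 1.18 for type 1 over non-diabetic and 1.06 for type 1 over type 2, with 3 and 2 of 5 at an unadjusted p under 0.05, and DESeq2 called 0 in each. The summed B cell level ran from 21.5 to 3880 CPM in type 1, 49.9 to 276 CPM in type 2 and 38.8 to 497 CPM in non-diabetic libraries, and the summed adipocyte level from 260 to 1180 CPM in type 1, 244 to 429 CPM in type 2 and 201 to 466 CPM in non-diabetic libraries. Type 1 replicate 4 was the highest type 1 library in each listed adipocyte and B cell gene, and without it the members' median log2 change for type 1 over non-diabetic was 2.4. The part of the other cell types in the members' values was not tested. At day 28, where Slc4a1 was higher in type 2 by its medians, 5 of 5 T cell genes rose in type 2 over non-diabetic, beside 10.7% of all genes called. The count of T cell genes was 1 without type 2 replicate 4, 0 with libraries of the same first number summed, and 3 with the replicate block or in the fit of only 2 groups.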

How the data were processed

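Per the labels' protocols, a PureLink kit was used for RNA of the infarct and a TruSeq stranded mRNA kit for the libraries. The authors deposited raw read counts per gene, 1 table for each day. The submitters' processing notes name mm39 and DESeq2; aligner, annotation and strand setting were not given in the sources used here. Gene symbols came from GENCODE M21, and 1 listed gene, Ahsp, had no match.

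Genes passed edgeR's filterByExpr (minimum count 10, total 15), libraries were scaled by TMM, and all 3 groups within a day entered 1 fit in edgeR 4.0.16 (R 4.3.3) with the quasi-likelihood test, called at a Benjamini-Hochberg adjusted p of 0.05 over all genes tested. The standard error is the log2 change divided by the square root of F. CPM on the log2 scale used a prior count of 2. Alternatives were DESeq2 1.42.0, limma-voom (limma 3.58.1), RLE scaling, no filter, the fit of only 2 groups, a replicate block, sums of copies or of libraries, and leaving out each library. In simulated counts for type 1 over non-diabetic at day 28, 81 of 99 genes changed by 1 on the log2 scale were called. The changed genes were drawn at random, with independent noise for each gene. Swings shared by the members and changes smaller than 1 were not simulated, so the share called does not carry over to the members.

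The members and gene lists were chosen with earlier results of these data known. Named are the members, up to 4 called genes of a list in each direction, else its 2 most abundant, the 5 genes most like the members each day, and 3 embryonic globins; other named genes were chosen after their values were seen, and a few genes that the rule names are not reported here. No 2 libraries of a group held near-identical counts. Of counts from 1 to 49, 76.4% at day 7 and 75.2% at day 28 were even numbers; whether both reads of a pair were counted was not tested.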

Additional observations from a re-analysis of the deposited data

Results flagged for a closer look

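Among 55 groups of values checked for a library far from the rest of its group, 3 held one, where chance gives about 1 in 20. The values overlap between measures, so the checks are not independent. The non-diabetic group of day 28, with 11 libraries, was too large for this check and was left out. Slc4a1 in type 2 diabetic replicate 2 at day 7 reached 3.54 on the log2 CPM scale, and the next library of its group was at -0.10. The same library held 23.4 Slc4a1 counts per 1000 haemoglobin counts, beside 3.45 in the next. Alas2 gave 44.3 counts per 1000 haemoglobin counts in type 1 diabetic replicate 6 at day 7, the library with the most haemoglobin, beside 37.2 in the next of its group. Non-diabetic replicates 6, 5 and 7 of that day had higher ratios, 53.1, 45.3 and 44.5. A further check covered 18 pairs of a member and a comparison. It asked whether all libraries of the first group lay on 1 side of the second group's mean at day 7. It also asked whether all lay on the opposite side at day 28. Both held in 0 pairs.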

How the results depend on the processing

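The median log2 change of the members at day 7 kept its direction under every alternative run. With 1 library left out it ran from 1.57 to 2.54 for type 1 over non-diabetic, 1.07 to 1.55 for type 2 over non-diabetic and 0.402 to 1.25 for type 1 over type 2, and that of Slc4a1 for type 1 over type 2 from -0.903 to 1.58. Replicate numbers recur across groups. With group means subtracted, same-numbered libraries of different groups correlated at -0.37 to 0.37 (day 7) and -0.42 to 0.34 (day 28). Among libraries of other groups, a same-numbered one was the best match for 5 of 24 libraries at day 7 and 4 of 30 at day 28. Whether same-numbered libraries share more than a number was not tested. With a replicate block the day 7 medians were 1.88, 1.23 and 0.67 in the order above. At day 28, 0 members were called under every alternative other than leaving out 1 library, where the count for type 2 over non-diabetic ran from 0 to 1. Estimates near 0 changed sign for type 2 over non-diabetic at day 28. Hba-a1 was at -0.0134 with summing of libraries whose names begin with the same number and at -0.0272 with globin copies summed, and Hbb-bs was at 0.077 by limma-voom and at 0.0135 with the replicate block. With 1 library left out, Hba-a1 ran from -0.0676 to 0.305, Hba-a2 from -0.254 to 0.133, Hbb-bs from -0.13 to 0.226, Hbb-bt from -0.327 to 0.0548 and Alas2 from -0.0757 to 0.332, and Slc4a1 for type 1 over non-diabetic from -0.501 to 0.0454. Of the companions, 2 were called for type 1 over non-diabetic at day 7, against 4 by DESeq2 and 1 with those libraries summed. For type 2 over non-diabetic that day, DESeq2 and the fit of only 2 groups called 1, and for type 1 over type 2 at day 28 DESeq2 called 1; with 1 library left out both counts ran from 0 to 1. With those libraries summed, which leaves fewer samples, the count of all genes called was lower: 1460 against 4090 for type 1 over non-diabetic, 176 against 1340 for type 2 over non-diabetic and 0 against 492 for type 1 over type 2 at day 7, and 6 against 759, 427 against 2020 and 125 against 607 at day 28. With them summed the members' day 7 medians were 2.23, 1.36 and 0.867, and 2 clearance genes and 3 neutrophil genes were called for type 1 over non-diabetic. Without the filter 823 and 289 genes were called for the type 2 comparisons of day 7, and 440 and 403 for the type 1 comparisons of day 28. DESeq2 called 1060 for type 1 over type 2 at day 7 and 1220 and 1040 for the type 1 comparisons of day 28, where the replicate block called 333 and 375. The fit of only 2 groups called 983 for type 1 over type 2 at day 7. The cause of these shifts, those with summed libraries included, was not tested.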
